A study of Homo sapiens with 6 samples.

Results

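The nuclear genes of the respiratory chain were taken as protein-coding nuclear genes whose symbols begin with NDUFA, NDUFB, NDUFC, NDUFS, NDUFV, UQCR, COX4I, COX5, COX6, COX7, COX8, ATP5F, ATP5M or ATP5P, together with SDHA, SDHB, SDHC, SDHD and CYC1. Of 58219 gene identifiers in the counts, 98 met this rule. They were 37 subunit genes of complex I, 8 NDUFAF genes of complex I assembly, 4 genes of complex II, 10 of complex III, 19 of complex IV, 18 of complex V and 2 read-through genes. NDUFA4 and NDUFA4L2 were placed with complex IV in spite of their symbols. Counts were high enough to test 87 of the 98 genes.

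The 6 libraries were polyA-selected, strand-specific RNA-seq of SNU-449, an established cell line from a human hepatocellular carcinoma of grade II-III/IV. One group of 3 libraries came from cells that stably expressed wild-type Yes (Yes WT), and the other 3 from cells that stably expressed the gatekeeper mutant of this SRC-family tyrosine kinase (Yes T348I). Both groups carried dasatinib at 100 nM, an inhibitor of SRC-family kinases, so the comparison is of the mutant with the wild-type kinase in the presence of the drug. No untreated or parental cells were analysed here, so the mutant and the response to the drug cannot be told apart. The labels do not say for how long cells were treated, whether each stable line was 1 clone or a pool, or whether the replicates were separate cultures. All p-values thus rest on library-to-library spread, part or all of which may be technical.

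The respiratory chain sits in the inner mitochondrial membrane. Complex I takes electrons from NADH and complex II takes them from succinate, both pass them to ubiquinone, complex III passes them on to cytochrome c, and complex IV passes them to oxygen. Complexes I, III and IV pump protons, and complex V, the ATP synthase, uses the proton gradient to make ATP. Complexes I, III, IV and V are built from nuclear subunits and from subunits encoded by the mitochondrial genome, whereas complex II is wholly nuclear. Liver cells rely on this chain for most of their ATP, and tumour cells vary in how far they do.

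In each list of values below, the libraries stand in the order of replicates 1 to 3. Gene totals ranged from 14360137 to 19608763 counts per library, and correlations of log2 levels were 0.995 to 0.996 within a group and 0.982 to 0.985 between groups. YES1 measured 357, 368 and 367 CPM in Yes WT and 382, 411 and 435 in Yes T348I (0.17 ± 0.036 SE in log2 fold change, edgeR adjusted p = 9.94e-05), and these counts do not separate the introduced from the endogenous gene or the mutant from the wild-type sequence. The hepatocyte markers ALB, APOA1, APOB, TTR and HNF4A were at 10 counts or fewer in every library, and the summed level of the 7 hepatocyte markers was 3.28 to 3.46 CPM in Yes WT and 2.06 to 2.97 in Yes T348I. The keratin genes KRT8 (172 and 163 CPM, group means) and KRT18 (258 and 261) and the mesenchymal gene VIM (6201 and 6726) were well detected. EPCAM of the epithelial list measured 0.506 CPM in Yes WT and 0.287 in Yes T348I (group means) and was not tested. Of the same lists, CDH1 was lower (3.35 and 1.47 CPM, log2 fold change -1.16, edgeR adjusted p = 8.47e-06), and CDH2 (153 and 228 CPM, log2 fold change 0.57, adjusted p = 5.87e-18) and ZEB1 (58.1 and 72.6 CPM, log2 fold change 0.32, adjusted p = 9.22e-08) were higher. Summed markers of leukocytes (2.42 to 2.94 CPM in Yes WT, 0.353 to 1.23 in Yes T348I) and of endothelium (1.14 to 1.53 and 0.480 to 0.564) were low. CD3E and HBB had 0 counts in all libraries. Sums of the 3 cholangiocyte markers were 397 to 428 CPM in Yes WT and 712 to 799 in Yes T348I, sums of 4 fibroblast and stellate markers 108 to 119 and 116 to 134, sums of 4 epithelial markers 424 to 440 and 411 to 452, and sums of the 3 mesenchymal markers 6375 to 6442 and 6825 to 7190. KRT7 (310 and 603 CPM, group means) and SOX9 (106 and 149) gave nearly all of the cholangiocyte sums, and KRT19 measured 0.943 and 0.985. For the fibroblast and stellate sums this was COL1A1 (113 and 125 CPM), and for the epithelial sums KRT8 and KRT18. DCN, LUM and PDGFRB were at 10 counts or fewer in every library. Whether the cells behind these markers had a part in the results below was not tested.

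Small rises outnumbered falls among the respiratory chain genes. In edgeR's quasi-likelihood test with Benjamini-Hochberg adjustment over all 14723 genes tested, at a threshold of 0.05, 28 of the 87 tested members were higher in Yes T348I, 7 were lower and 52 were not called. Over all genes tested, 55.3% were called, 28% higher and 27.3% lower. The members' share called was 40.2%, below that of all genes, and their count of lower calls in particular was small. The median log2 fold change of the tested members was 0.056, and that of all genes tested was -0.013. Of the 87 members, 61 lay above 0, and the values ran from -0.57 (NDUFA13) to 0.67 (NDUFAF4). In libraries of pooled cells, a change in the share of cells that express a gene and a change in its RNA per cell cannot be told apart.

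Most of these changes were small. Among the called members the median change, taken in either direction, was 1.13-fold, and among all called genes it was 1.27-fold. Against a minimum change of 1.2-fold (edgeR glmTreat), 4 members were higher (NDUFAF4, NDUFAF2, NDUFAF8 and UQCRFS1) and 0 lower, or 4.6% of those tested. Of all genes, 21.9% passed that test, 9.47% higher and 12.5% lower. Yes WT and Yes T348I ranges were fully apart for 25 members that were higher and 5 that were lower. Over all genes this held for 59.5%, with 29.9% higher and 29.7% lower. The balance of calls moved with the scaling of the libraries, to 20 higher and 11 lower with upper-quartile factors and to 21 and 9 with library size alone. With a correction for GC content and for the exon length of each gene, all its exons merged, there were 41 higher and 6 lower. Leaving out each library in turn, 19 of the 28 higher members and 2 of the 7 lower members (SDHC among them) were called each time.

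**Figure D1:**
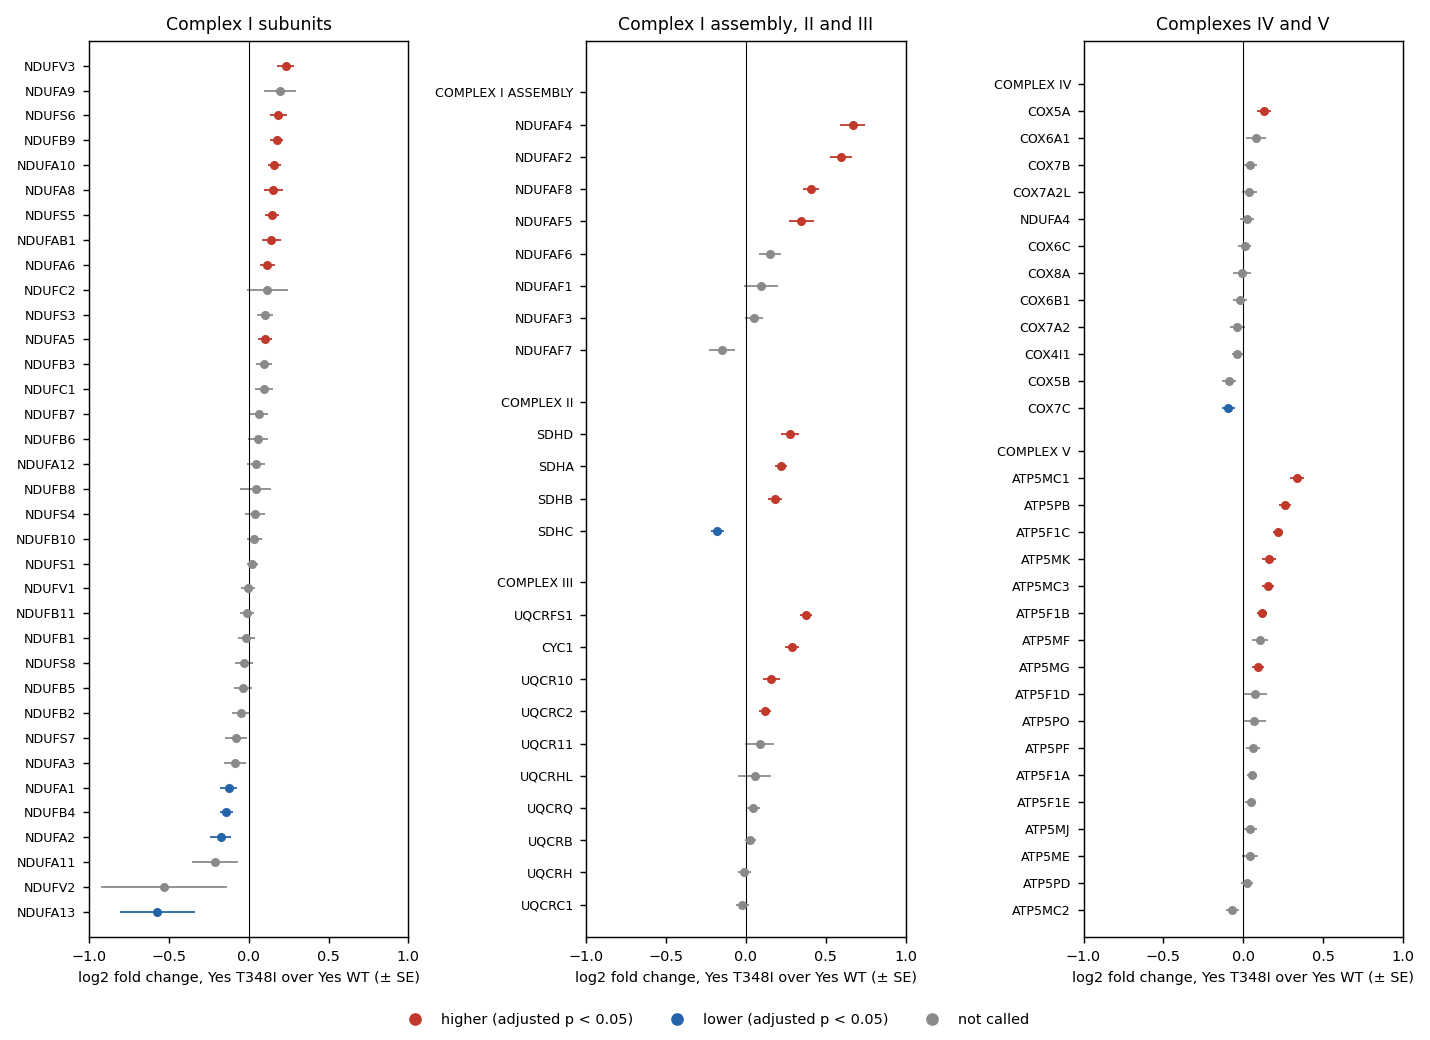
Log2 fold change (Yes T348I over Yes WT, horizontal axis) with its standard error for 86 of the tested members, by complex, from the edgeR fit on 3 libraries per group. Red points were called higher, blue lower and grey not called; the assembly genes NDUFAF4 and NDUFAF2 lie farthest right at 0.67 and 0.60, and the values of complex IV lie between -0.09 and 0.13.

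The 5 complexes did not show the same counts. Among all genes tested, 28% were higher and 27.3% lower. Complex IV had 1 member higher and 1 lower of 12 tested, at a median log2 fold change of 0.0023. Complex I had 9 higher and 5 lower of 36, with a median of 0.042. In complex V 7 of 17 were higher and 0 lower (median 0.076), and in complex III 4 of 10 were higher and 0 lower (median 0.071). All 4 genes of complex II were called, 3 higher and 1 lower (median 0.20). The NDUFAF genes had 4 of 8 higher and 0 lower, with a median of 0.25. Whether the complexes differed from each other was not tested, and complexes II and III and the NDUFAF genes rest on 4, 10 and 8 genes.

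Summed levels differed most for the assembly genes and did not separate the groups for complexes I and IV. The 98 genes together measured 6541, 6777 and 6656 CPM in Yes WT and 7134, 6843 and 7073 CPM in Yes T348I. With this TMM scaling the groups did not overlap, and the means differed by 5.39%. The TMM factors were 1.017, 1.008 and 1.014 in Yes WT and 0.996, 0.978 and 0.987 in Yes T348I. Scaled by library size alone, the groups of this 98-gene sum overlapped and the difference was smaller. The NDUFAF genes summed to 175, 179 and 186 CPM in Yes WT and 221, 215 and 217 in Yes T348I, 20.8% more. Complex V rose from 2329, 2428 and 2389 CPM to 2607, 2505 and 2601 (7.93% more). Complex III went from 932, 954 and 936 CPM to 1036, 1000.3 and 1017 (8.20% more), and complex II from 287, 292 and 295 CPM to 312, 312 and 320 (8.08% more). The groups of these 4 sums did not overlap. Those of complex I (1735, 1814 and 1774 CPM against 1851, 1759 and 1831) and of complex IV (1083, 1110.5 and 1076 against 1106, 1053 and 1088) did. These sums are descriptions without a test, their differences depend on the scaling, and abundant genes weigh most in them.

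**Figure D2:**
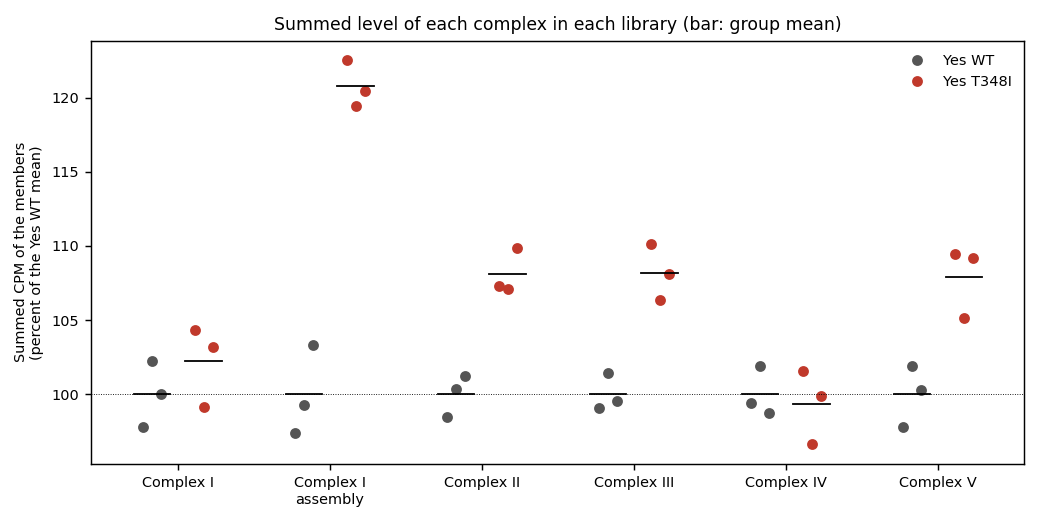
Summed CPM of the members of each complex in each library, as a percent of the Yes WT mean of that complex (vertical axis, which does not start at 0); points are replicates 1 to 3 and bars are group means. The 3 Yes T348I points lie above all Yes WT points for the assembly genes and complexes II, III and V, and the groups overlap for complexes I and IV.

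Promoter stretches of 9 members, called and not called, are shown because many genes of this chain are known to share binding sites for a few factors. These are NRF1, which is known to drive nuclear genes of respiration, GABPA of the ETS family, and YY1. RefSeq promoter windows (GRCh38.p14, 250 bases before to 50 after the start site) were at hand for 77 of the 98 members. Both strands were searched for 3 patterns, GCGCA followed by any base and GCGC for NRF1, CCGGAAG for the ETS family and AAGAT followed by GGCGG for YY1, and a gene was counted once whatever its number of matches. The NRF1 pattern was found for 18 of the 77 members (23.4%), and for 6.98% of all 27305 genes with windows. The members were limited to protein-coding genes, and no such limit was set on the 27305. The ETS pattern was found for 23 members (29.9%, against 12.2%) and the YY1 pattern for 9 (11.7%, against 1.46%). Capitals mark the pattern, and positions count back from the RefSeq start site, with -1 as the base before it. The gene bounds given further below are from GENCODE 29 and can begin elsewhere. The UQCRFS1 match and SDHA matches 3 and 4 lie inside those bounds.
SDHA match 1, chr5:218144-218173, plus strand, first capital at -166: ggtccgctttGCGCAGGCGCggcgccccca
SDHA match 2, chr5:218193-218222, plus strand, first capital at -117: gtggcatggtGCGCAGGCGCgatgtccccc
SDHA match 3, chr5:218242-218271, plus strand, first capital at -68: ccggcgtggtGCGCAGGCGCggtatccccc
SDHA match 4, chr5:218291-218319, plus strand, first capital at -19: ccggtgtggtGCGCAGGCGCagtctgcgc
SDHB, chr1:17054144-17054170, minus strand, first capital at -128: acccgggaaaCCGGAAGccgcctccca
SDHD, chr11:112086753-112086782, plus strand, first capital at -110: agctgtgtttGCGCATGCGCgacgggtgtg
UQCRFS1, chr19:29213163-29213192, minus strand, first capital at -31: gcgcctcctcGCGCCTGCGCcgtggttgga
UQCRC1, chr3:48609674-48609703, minus strand, first capital at -47: gtacggtactGCGCCTGCGCcgcgaccgcc
NDUFAF4, chr6:96898022-96898048, minus strand, first capital at -147: ccacctcccgCCGGAAGcggccctcgt
NDUFB4 match 1, chr3:120596167-120596196, plus strand, first capital at -159: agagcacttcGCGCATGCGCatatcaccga
NDUFB4 match 2, chr3:120596263-120596292, plus strand, first capital at -63: ctctgctaacGCGCAGGCGCacttcctgaa
ATP5F1C, chr10:7788145-7788174, plus strand, first capital at -22: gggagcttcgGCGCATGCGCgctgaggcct
COX5B, chr2:97646015-97646041, plus strand, first capital at -37: aagcccgcccCCGGAAGtccctcctgt
SDHA held 4 NRF1 matches of the same letters within this window. NDUFB4 held another NRF1 match, which begins at -8, and COX5B another ETS match, which begins at -5. Both run past the start site and are not shown. SDHB, NDUFAF4 and COX5B are shown for the ETS pattern and the others for NRF1. Genes of every outcome are among them: SDHA, SDHB, SDHD, UQCRFS1, NDUFAF4 and ATP5F1C were higher, NDUFB4 was lower, and UQCRC1 and COX5B were not called. By outcome, the NRF1 pattern was found for 7 of 23 higher members with windows, 1 of 5 lower members and 9 of 43 members not called. For the ETS pattern these counts were 6 of 23, 2 of 5 and 15 of 43. A match is a stretch of letters and no measure of binding.

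NDUFAF proteins build complex I and leave it when it is complete, and these genes held the largest rises. NDUFAF4 (ENSG00000123545.5, GRCh38 chromosome 6, 96889313 to 96897881, minus strand), which works early in assembly together with NDUFAF3, measured 13.6, 12.9 and 14.4 CPM in the Yes WT libraries and 21.9, 20.6 and 22.7 in those of Yes T348I. Every Yes T348I library lay above every Yes WT library, and the gene was 1.59-fold higher (0.67 ± 0.078 SE in log2 fold change, adjusted p = 9.5e-10). NDUFAF3, its partner, measured 40.9 ± 1.74 CPM in Yes WT and 42.1 ± 2.86 in Yes T348I (SD, n = 3 each) and was not called (0.049 ± 0.056 SE in log2 fold change, adjusted p = 0.478). NDUFAF2 (ENSG00000164182.10, GRCh38 chromosome 5, 60945129 to 61153037, plus strand), a paralogue of the subunit NDUFA12 that acts late in assembly, measured 17.8, 18.1 and 18.3 CPM in the Yes WT libraries and 25.3, 29.4 and 27.8 in those of Yes T348I. It was 1.51-fold higher without overlap (0.60 ± 0.071 SE in log2 fold change, adjusted p = 2e-09), and NDUFA12 itself was not called (0.045 ± 0.057 SE in log2 fold change, adjusted p = 0.523).

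NDUFAF5 and NDUFAF8 work as a pair, in which NDUFAF5 modifies the subunit NDUFS7 and NDUFAF8 keeps NDUFAF5 stable. NDUFAF8 (ENSG00000224877.3, GRCh38 chromosome 17, 81239239 to 81241281, plus strand) measured 40.6, 43.1 and 42.3 CPM in the Yes WT libraries and 57.4, 53.7 and 55.6 in those of Yes T348I. NDUFAF5 (ENSG00000101247.17, GRCh38 chromosome 20, 13784950 to 13821582, plus strand) measured 14.8, 13.9 and 16.8 CPM in the Yes WT libraries and 19.1, 18.6 and 20.3 in those of Yes T348I. Both were higher with no overlap of groups, NDUFAF8 by 1.33-fold (0.41 ± 0.05 SE in log2 fold change, adjusted p = 4.98e-09) and NDUFAF5 by 1.27-fold (0.35 ± 0.08 SE in log2 fold change, adjusted p = 0.000295). Their substrate NDUFS7 was not called (-0.08 ± 0.067 SE in log2 fold change, adjusted p = 0.319), and its direction turned with the correction for GC content and length (0.11, adjusted p = 0.109) and with unstranded counts (0.29, adjusted p = 0.099). NDUFAF1 (log2 fold change 0.095, adjusted p = 0.46), NDUFAF6 (log2 fold change 0.15, adjusted p = 0.0598) and NDUFAF7 (log2 fold change -0.15, adjusted p = 0.113) were not called either.

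Complex II, succinate dehydrogenase, belongs to both the citric acid cycle and the respiratory chain. SDHA, the flavoprotein that oxidises succinate (ENSG00000073578.16, GRCh38 chromosome 5, 218241 to 256700, plus strand), measured 101, 104 and 108 CPM in the Yes WT libraries and 122, 122 and 121 in those of Yes T348I. SDHB, the iron-sulfur subunit, measured 69.0, 67.1 and 67.3 CPM in Yes WT and 76.4, 75.0 and 79.4 in Yes T348I, and SDHD, a membrane anchor, measured 33.4, 33.5 and 34.0 CPM in Yes WT and 39.9, 39.3 and 43.1 in Yes T348I. All 3 were higher in every Yes T348I library than in any Yes WT library. Their log2 fold changes were 0.22 ± 0.039 SE for SDHA (edgeR adjusted p = 4.78e-06), 0.18 ± 0.044 for SDHB (adjusted p = 0.0005) and 0.28 ± 0.056 for SDHD (adjusted p = 5.45e-05). SDHC (ENSG00000143252.14, GRCh38 chromosome 1, 161314257 to 161375340, plus strand), the other anchor, went the other way at 83.6, 87.2 and 85.7 CPM in the Yes WT libraries and 74.4, 75.5 and 76.8 in those of Yes T348I. Its groups did not overlap either (-0.18 ± 0.042 SE in log2 fold change, adjusted p = 0.00035). Named pseudogenes exist for all 4 genes, 11.2% of the exon length of SDHD was shared with another gene on the same strand, and reads that fitted a gene and a copy equally well were not counted.

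The catalytic subunits of complex I carry electrons from NADH to ubiquinone, and those given here were not called. NDUFS1, the largest iron-sulfur subunit, measured 169.9 ± 3.68 CPM in Yes WT and 173 ± 1.01 in Yes T348I (SD, n = 3 each) and was not called (log2 fold change 0.023, adjusted p = 0.605). NDUFV1, which binds NADH, measured 73.2 ± 1.23 CPM in Yes WT and 72.9 ± 2.86 in Yes T348I (SD, n = 3 each) and was also not called (log2 fold change -0.0045, adjusted p = 0.94). NDUFS3 (log2 fold change 0.10, adjusted p = 0.0804), NDUFS7 and NDUFS8 (log2 fold change -0.031, adjusted p = 0.668) were not called. With the correction for GC content and length, NDUFS1, NDUFS3 and NDUFV1 were called higher (0.09, 0.19 and 0.14 on the log2 scale). NDUFV2 gave under 1 CPM in every library, and 28.4% of its exon length lay under an overlapping gene on the same strand, where reads count for neither gene.

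Of the 29 tested accessory subunits of complex I, 9 were higher and 4 lower, where 28% of all genes were higher and 27.3% lower. These subunits surround the core and are known to hold it together rather than to carry electrons. NDUFV3 measured 34.5, 35.3 and 35.6 CPM in Yes WT and 42.9, 40.8 and 39.7 in Yes T348I (0.23 ± 0.055 SE in log2 fold change, adjusted p = 0.000422). NDUFB9 measured 89.5, 92.8 and 94.2 CPM in Yes WT and 107, 103 and 102 in Yes T348I (0.17 ± 0.04 SE in log2 fold change, adjusted p = 0.00027), and NDUFA10 measured 88.3, 88.5 and 89.1 CPM in Yes WT and 100.4, 97.5 and 99.1 in Yes T348I (0.16 ± 0.04 SE in log2 fold change, adjusted p = 0.000671). None of these 3 genes overlapped between groups. NDUFS6, which carries a zinc site, measured 42.8, 47.5 and 43.5 CPM in Yes WT and 48.6, 52.7 and 51.0 in Yes T348I and was higher (0.19 ± 0.053 SE in log2 fold change, adjusted p = 0.00256). The other higher genes, NDUFS5, NDUFA8, NDUFAB1, NDUFA6 and NDUFA5, had log2 fold changes from 0.10 to 0.16 and adjusted p from 0.00659 to 0.0443. Each of these 5 lost its call without at least 1 library: NDUFS5 without Yes WT replicate 3, NDUFA8 without replicate 1 of either group or Yes T348I replicate 3, and NDUFAB1 without Yes WT replicates 1 or 3 or Yes T348I replicate 3. NDUFA6 lost it without replicates 1 or 3 of either group, and NDUFA5 without any library but Yes T348I replicate 1 (adjusted p from 0.0512 to 0.286 over these 5 genes). NDUFAB1 is also the acyl carrier protein of mitochondrial fatty acid synthesis.

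The lower accessory subunits changed less clearly. NDUFB4 measured 95.3, 105 and 99.4 CPM in Yes WT and 88.9, 89.4 and 93.8 in Yes T348I, without overlap of groups (-0.14 ± 0.042 SE in log2 fold change, adjusted p = 0.00443), and it lost the call without Yes WT replicate 2 (adjusted p = 0.0637). NDUFA2 measured 31.3, 33.4 and 32.6 CPM in Yes WT and 32.0, 26.3 and 27.1 in Yes T348I (-0.17 ± 0.066 SE in log2 fold change, adjusted p = 0.0232). NDUFA1 measured 50.4, 58.0 and 53.8 CPM in Yes WT and 52.6, 48.4 and 46.7 in Yes T348I (-0.13 ± 0.054 SE in log2 fold change, adjusted p = 0.0456). The groups of both overlapped, since Yes T348I replicate 1 was about as high as the Yes WT libraries. Both lost the call without any one of replicates 2 and 3 of either group (adjusted p from 0.0611 to 0.15 for NDUFA2 and from 0.0928 to 0.319 for NDUFA1). NDUFA13 (also known as GRIM-19) had the lowest value of all members (-0.57 ± 0.24 SE in log2 fold change, adjusted p = 0.0374), but at 1.89, 2.35 and 2.54 CPM in Yes WT and 1.59, 1.92 and 0.987 in Yes T348I it rests on 14 to 38 counts per library. Its call was lost without any one of Yes WT replicates 2 and 3 and Yes T348I replicates 1 and 3 (adjusted p from 0.0572 to 0.219), and 21.0% of its exon length was shared with genes on the same strand.

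Complex III moves electrons through cytochrome b, an iron-sulfur protein and cytochrome c1. UQCRFS1, the Rieske iron-sulfur protein (ENSG00000169021.5, GRCh38 chromosome 19, 29205321 to 29213541, minus strand), measured 108, 106 and 111 CPM in the Yes WT libraries and 139.8, 141 and 140.1 in those of Yes T348I. CYC1, cytochrome c1, measured 110.2, 113 and 117 CPM in the Yes WT libraries and 149, 131 and 134 in those of Yes T348I. These 2 nuclear genes of the catalytic core were the most changed of the complex, UQCRFS1 1.30-fold higher (0.38 ± 0.037 SE in log2 fold change, adjusted p = 1.76e-11) and CYC1 1.22-fold higher (0.29 ± 0.042 SE in log2 fold change, adjusted p = 1.2e-07). The core protein UQCRC2 measured 128, 133 and 133 CPM in Yes WT and 147, 136 and 144 in Yes T348I (0.12 ± 0.038 SE in log2 fold change, adjusted p = 0.00775). Its counterpart UQCRC1 measured 119.8 ± 3.31 CPM in Yes WT and 118 ± 7.44 in Yes T348I (SD, n = 3 each) and was not called (log2 fold change -0.024, adjusted p = 0.649). The small subunit UQCR10 was higher (log2 fold change 0.16, adjusted p = 0.00869). UQCRC2 lost its call without Yes WT replicate 1 (adjusted p = 0.0539) and UQCR10 without Yes WT replicate 3 (adjusted p = 0.0868). UQCRB, UQCRH, UQCRQ, UQCR11 and UQCRHL were not called, with log2 fold changes from -0.01 to 0.09. The mitochondrially encoded cytochrome b, described with the other mitochondrial genes, was lower.

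Complex IV varied least. Its catalytic subunits are mitochondrially encoded, and its nuclear subunits adjust and stabilise them, some as pairs of genes used in different tissues. COX4I1 measured 251, 239 and 240.4 CPM in the Yes WT libraries and 244, 232 and 234 in those of Yes T348I. The groups overlapped, and the gene was not called (-0.037 ± 0.034 SE in log2 fold change, adjusted p = 0.361). COX5A measured 67.8, 69.5 and 68.2 CPM in Yes WT and 74.7, 75.0 and 75.5 in Yes T348I and was higher (0.13 ± 0.043 SE in log2 fold change, adjusted p = 0.00863), though not with upper-quartile factors (adjusted p = 0.068). COX7C measured 109.8, 104 and 108 CPM in Yes WT and 103, 95.5 and 102 in Yes T348I and was lower (-0.093 ± 0.041 SE in log2 fold change, adjusted p = 0.0483), but not in DESeq2 (adjusted p = 0.129) or without any one of replicates 1 and 3 of Yes WT and 2 and 3 of Yes T348I (adjusted p from 0.0782 to 0.248). COX5B measured 86.2, 85.8 and 84.5 CPM in Yes WT and 81.3, 79.8 and 79.9 in Yes T348I, with no overlap but no call (-0.089 ± 0.041 SE in log2 fold change, adjusted p = 0.0636). The remaining 9 tested genes, COX4I1 among them, had log2 fold changes from -0.04 to 0.08.

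Of the paired tissue isoforms of complex IV, 1 gene of each pair carried nearly all counts in these cells. COX4I2, COX7A1 and COX7B2 had 0 counts in all 6 libraries, which at 3 counts allows up to 0.153 to 0.209 CPM per library. COX6A2, the heart and muscle form, and COX8C had at most 1 count per library, and COX6B2 had 2 to 5. The counterparts of these forms were detected and not called. COX6A1 measured 27.0 ± 0.809 CPM in Yes WT and 28.4 ± 0.945 in Yes T348I (SD, n = 3 each), and COX6B1 measured 103 ± 7.50 CPM in Yes WT and 101 ± 6.65 in Yes T348I. COX7A2 measured 56.6 ± 1.49 CPM in Yes WT and 55.1 ± 1.27 in Yes T348I, and COX8A measured 45.1 ± 2.28 CPM in Yes WT and 44.7 ± 3.60 in Yes T348I. COX7A2L, which helps to join complexes III and IV, was not called (log2 fold change 0.037, adjusted p = 0.526), nor was NDUFA4 (log2 fold change 0.024, adjusted p = 0.69). NDUFA4L2, a form known to be induced by hypoxia, had 3, 6 and 7 counts in Yes WT and 13, 5 and 3 in Yes T348I, and was not tested.

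**Figure D3:**
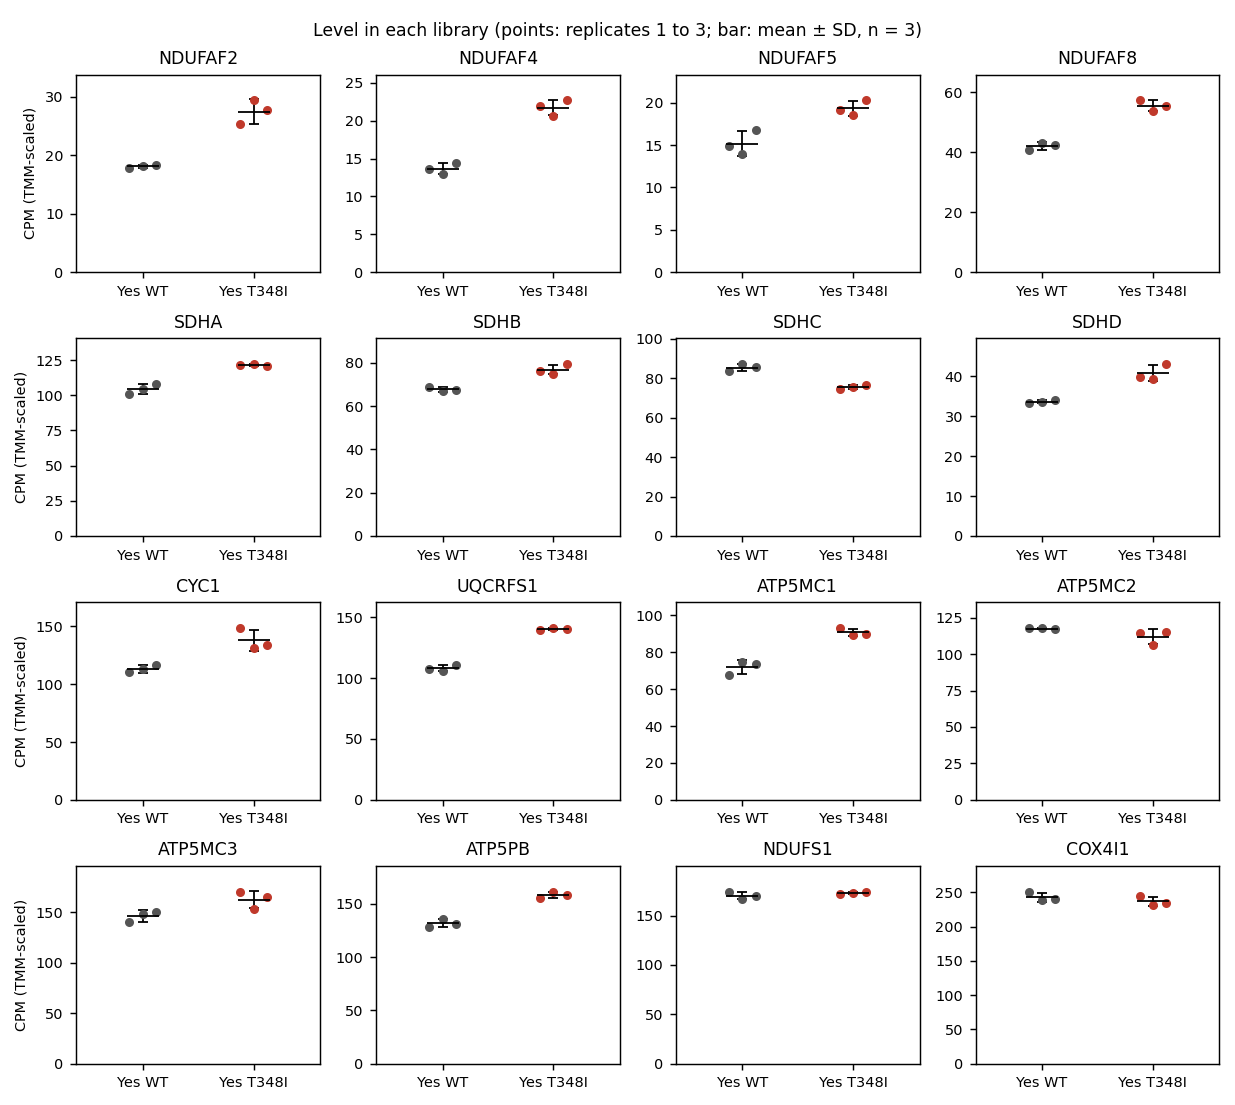
CPM of 16 members in each library (vertical axes start at 0 and differ between panels; points are replicates 1 to 3, bars are mean and SD, n = 3). The 4 NDUFAF genes, SDHA, SDHB, SDHD, CYC1, UQCRFS1, ATP5MC1, ATP5MC3 and ATP5PB lie higher in all 3 Yes T348I libraries, SDHC and ATP5MC2 lower, and NDUFS1 and COX4I1 overlap.

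In complex V the 7 higher genes included parts of the rotor, the stalk and the catalytic head. Subunit c forms the rotor ring and is encoded by ATP5MC1, ATP5MC2 and ATP5MC3, whose proteins become identical once their import signals are removed. ATP5MC1 (ENSG00000159199.13, GRCh38 chromosome 17, 48892765 to 48895871, plus strand) measured 67.8, 74.5 and 73.5 CPM in the Yes WT libraries and 93.1, 89.4 and 89.7 in those of Yes T348I. It was 1.26-fold higher without overlap (0.34 ± 0.044 SE in log2 fold change, adjusted p = 1.18e-08). ATP5MC3 measured 140.1, 148 and 150.5 CPM in Yes WT and 170.1, 153 and 165 in Yes T348I and was also higher (0.16 ± 0.039 SE in log2 fold change, adjusted p = 0.000813). ATP5MC2 measured 118, 118 and 117 CPM in Yes WT and 114, 106 and 115 in Yes T348I, with every Yes T348I library below every Yes WT library, and was not called (-0.068 ± 0.039 SE in log2 fold change, adjusted p = 0.139). With upper-quartile factors ATP5MC2 was called lower (adjusted p = 0.017).

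ATP5PB, subunit b of the stalk that holds the head still (ENSG00000116459.10, GRCh38 chromosome 1, 111448864 to 111462773, plus strand), measured 128, 136 and 131 CPM in the Yes WT libraries and 155, 161 and 159 in those of Yes T348I. It was higher without overlap (0.26 ± 0.037 SE in log2 fold change, adjusted p = 6.5e-08). ATP5F1C, the gamma subunit that turns inside the head, measured 223, 233 and 228 CPM in Yes WT and 259, 271 and 265 in Yes T348I (0.22 ± 0.033 SE in log2 fold change, adjusted p = 4.11e-07). The catalytic beta subunit ATP5F1B measured 509, 527 and 522 CPM in Yes WT and 572, 548 and 568 in Yes T348I (0.12 ± 0.032 SE in log2 fold change, adjusted p = 0.00192). Its partner alpha, ATP5F1A, measured 339, 344 and 345 CPM in Yes WT and 365, 342 and 360.3 in Yes T348I with overlap and was not called (0.055 ± 0.032 SE in log2 fold change, adjusted p = 0.153). It was called higher without Yes T348I replicate 2 (adjusted p = 0.0224) and with the correction for GC content and length (adjusted p = 0.000101). The other higher genes were ATP5MK (log2 fold change 0.16, adjusted p = 0.00188), whose groups overlapped, and ATP5MG (log2 fold change 0.092, adjusted p = 0.0405). ATP5MK lost its call without Yes WT replicate 1 (adjusted p = 0.0504), and ATP5MG without any one of the Yes WT libraries or Yes T348I replicate 3 (adjusted p from 0.0523 to 0.197).

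The genes that the mitochondrial genome contributes to the same complexes were mostly lower. Of its 13 protein genes, 0 were higher, 12 were lower and MT-ND1 was not called. Of all genes tested, 28% were higher and 27.3% lower. The groups overlapped for 6 of the 12 lower genes (MT-ND2, MT-ND3, MT-ND5, MT-ND6, MT-ATP6 and MT-ATP8). Among all genes, 29.7% lay lower without overlap. The median log2 fold change of the 13 mitochondrial genes was -0.27. They summed to 66110, 71541 and 64213 CPM in Yes WT and 49456, 63041 and 55439 CPM in Yes T348I. Every Yes T348I library was lower, and replicate 2, the highest of the 3, was close to the lowest Yes WT library. MT-CYB, the cytochrome b of complex III, measured 3639, 3998 and 3552 CPM in Yes WT and 2589.6, 3263 and 2876 in Yes T348I (-0.36 ± 0.048 SE in log2 fold change, adjusted p = 2.61e-08). MT-CO1, the catalytic subunit of complex IV, measured 12917, 13749 and 12680.3 CPM in Yes WT and 9315, 11203 and 10551 in Yes T348I (-0.34 ± 0.045 SE in log2 fold change, adjusted p = 1.83e-08), and MT-CO2 measured 6577, 6968 and 6353 CPM in Yes WT and 4678, 5809.9 and 5207 in Yes T348I (-0.34 ± 0.046 SE in log2 fold change, adjusted p = 3.26e-08). MT-ND4L of complex I was lower as well (-0.30 ± 0.047 SE in log2 fold change, adjusted p = 5.52e-07). These 13 mitochondrial genes made up 6.42% to 7.15% of TMM-scaled counts in Yes WT and 4.95% to 6.30% in Yes T348I. Uniquely mapped reads outside annotated exons of the counted strand made up 7.40% to 7.87% in Yes WT and 6.37% to 6.86% in Yes T348I, and whether what sets this share had a part in the mitochondrial values was not tested.

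**Figure D4:**
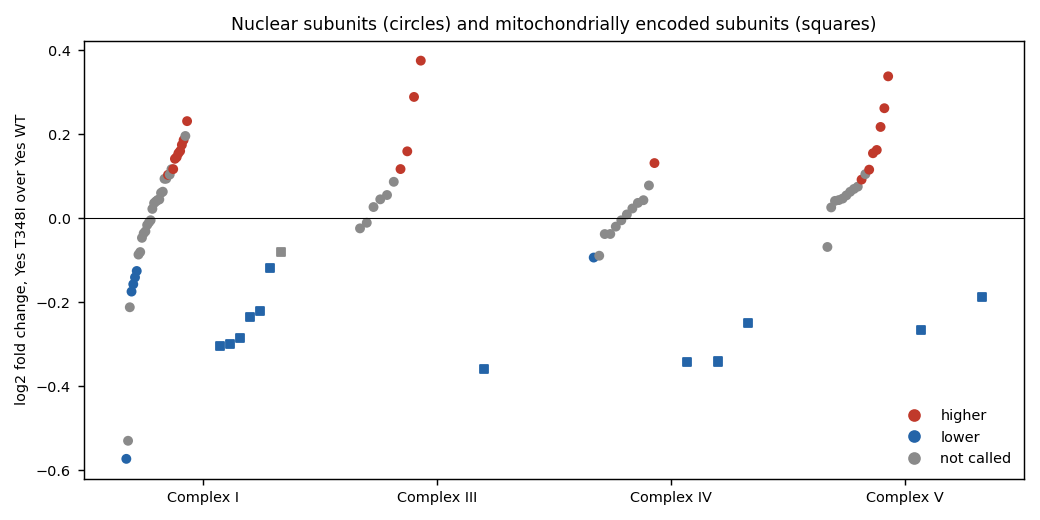
Log2 fold change (Yes T348I over Yes WT, vertical axis) of the nuclear subunits (circles) and of the 13 mitochondrially encoded subunits (squares) of complexes I, III, IV and V, each group sorted by value. All squares lie below 0, from -0.36 (MT-CYB) to -0.08 (MT-ND1), beside nuclear subunits that lie on both sides of 0.

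Beyond the NDUFAF genes, 49 assembly factors of the 5 complexes were examined as a list. Of 48 tested, 22 were higher, 3 lower and 23 not called, with a median log2 fold change of 0.15. Their share called, 52.1%, was near the 55.3% of all genes, of which 28% were higher and 27.3% lower. SCO1, which brings copper to complex IV, measured 48.4, 49.6 and 47.3 CPM in Yes WT and 62.2, 68.0 and 61.8 in Yes T348I (0.40 ± 0.049 SE in log2 fold change, adjusted p = 4.02e-09). COA7, another complex IV factor, measured 54.6, 56.1 and 53.9 CPM in Yes WT and 65.6, 72.9 and 68.1 in Yes T348I (0.32 ± 0.048 SE in log2 fold change, adjusted p = 1.89e-07). BCS1L, which inserts the Rieske protein UQCRFS1 into complex III, measured 31.2, 30.7 and 29.6 CPM in Yes WT and 41.3, 36.6 and 39.1 in Yes T348I (0.36 ± 0.059 SE in log2 fold change, adjusted p = 1.51e-06). These genes did not overlap between groups. LRPPRC, which stabilises mitochondrial mRNA, measured 290.1, 289 and 298 CPM in Yes WT and 344, 347.9 and 344 in Yes T348I (0.24 ± 0.032 SE in log2 fold change, adjusted p = 2.09e-08). The 3 lower factors were SURF1 (log2 fold change -0.26, adjusted p = 0.00219), HIGD2A (log2 fold change -0.13, adjusted p = 0.0296) and ATPAF2 (log2 fold change -0.35, adjusted p = 0.0356), named here after their values were seen.

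The genes that carry or feed electrons went both ways, with 5 higher and 7 lower of 18 tested and a median of 0.00034 on the log2 scale. The share called was 66.7%, beside 55.3% of all genes (28% higher and 27.3% lower). CYCS, cytochrome c, which runs between complexes III and IV, measured 254 ± 4.27 CPM in Yes WT and 381 ± 4.47 in Yes T348I (SD, n = 3 each) and was higher (0.58 ± 0.032 SE in log2 fold change, adjusted p = 3.47e-19). PDSS1, which makes the side chain of ubiquinone, measured 13.4, 16.1 and 14.0 CPM in Yes WT and 22.0, 25.2 and 23.5 in Yes T348I (0.70 ± 0.079 SE in log2 fold change, adjusted p = 6.13e-10). COQ8A, needed for ubiquinone synthesis, measured 55.2, 52.5 and 52.7 CPM in Yes WT and 36.0, 32.0 and 34.3 in Yes T348I and was lower (-0.64 ± 0.054 SE in log2 fold change, adjusted p = 1.51e-13). GPD2, the glycerol phosphate dehydrogenase that feeds ubiquinone from the cytosolic side, was lower too, at 119.7, 124 and 127 CPM in Yes WT and 97.7, 107 and 102 in Yes T348I (-0.27 ± 0.04 SE in log2 fold change, adjusted p = 1.83e-07). None of these 4 genes overlapped between groups.

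Regulators of mitochondrial biogenesis and genes of cristae and ATP export had no lower call. Of 19 tested regulators 11 were higher and 8 not called (median 0.21), a share called of 57.9%, near the 55.3% of all genes. PPRC1, a coactivator related to PGC-1alpha, measured 87.6, 83.8 and 87.4 CPM in Yes WT and 124, 121 and 123 in Yes T348I (0.50 ± 0.039 SE in log2 fold change, adjusted p = 1.63e-14), whereas PPARGC1A itself had under 1 CPM on average in each group. SSBP1 (0.38 ± 0.038 SE in log2 fold change, adjusted p = 1.91e-11), POLG (log2 fold change 0.31, adjusted p = 3.87e-07) and TWNK (log2 fold change 0.36, adjusted p = 6.69e-07), which replicate mitochondrial DNA, were higher. Of 18 tested genes of cristae and ATP export 12 were higher and 6 not called (median 0.19), a share called of 66.7%. Of all genes, 28% were higher and 27.3% lower. VDAC1, the outer membrane pore, measured 272, 273 and 281 CPM in Yes WT and 369, 355 and 373 in Yes T348I (0.41 ± 0.033 SE in log2 fold change, adjusted p = 3.27e-14). CHCHD3 (log2 fold change 0.47, adjusted p = 5.75e-13) and IMMT (log2 fold change 0.27, adjusted p = 4.33e-08), which shape cristae, and PHB (log2 fold change 0.29, adjusted p = 1.02e-09), a scaffold of the inner membrane, were higher. ESRRG and SLC25A6 had 0 counts in every library, and SLC25A6 lies in the region shared by X and Y, where counting can fail.

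Some members could not be read reliably. NDUFA7, with 1 to 7 counts per library, shared 32.3% of its exon length with an overlapping gene on the same strand. Among tested members, COX8A (34.5% shared), NDUFB8 (33.8%), NDUFS3 (19.6%), ATP5PO (19.6%), NDUFC1 (18.5%), NDUFC2 (16.3%), COX6A1 (13.02%), UQCR11 (10.9%) and NDUFA9 (10.6%) were not called, and ATP5MK (15.4%) and SDHD (11.2%) were higher. Reads on their shared exons were not counted. ATP5MGL had 4 to 9 counts per library, and the read-through genes ATP5MF-PTCD1 and NDUFC2-KCTD14 had at most 2. Named pseudogenes existed for 52 of the 87 tested members, up to 17 for COX6C. Of those 52, 21 were higher and 3 lower, and of the other 35, 7 were higher and 4 lower.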

How the data were processed

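RNA was measured in 6 libraries of SNU-449 cells, 3 per group. The authors deposited raw read counts for each gene, in separate files for the 6 libraries, and per the submitters' processing notes CASAVA 1.8.2, Trimmomatic 0.35, STAR 2.5.1b and GRCh38 were used, without roles or order. No source used here names the annotation release. The column of reverse-strand counts was used, since the kit keeps strand per the labels' protocols and the forward column held 6.13% to 6.59% of the reverse total. Reads on no feature (6.37% to 7.87% of unique reads) or on more than 1 gene (3.11% to 3.15%) and reads with several positions were not counted, which lowers genes with overlaps or close copies. Symbols were found for 57437 of 58219 identifiers, and 57881 were in GENCODE 29, which gave positions.

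Groups were taken from the labels, which give no batch. The test was that of edgeR 4.0.16 under R 4.3.3 (filterByExpr with a minimum count of 10, TMM scaling, quasi-likelihood F-test, Benjamini-Hochberg adjustment over 14723 genes, threshold 0.05). Levels are CPM scaled by TMM, and a standard error is the log2 fold change divided by the square root of F. Alternatives used DESeq2 1.42.0, limma 3.58.1, other scaling and filters, unstranded counts, a replicate block, offsets for GC content and length, and each library left out. The members and lists were chosen with earlier results of these data known. Named were up to 4 members per complex or list with the lowest adjusted p, the 6 largest called rises and falls, catalytic subunits, isoform pairs, and members not tested. Some genes under this rule are not reported here. The floors given for genes without counts cover counting error only. Standard errors and SDs also take in the spread between the libraries of a group.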

Additional observations from a re-analysis of the deposited data

How the results depend on the processing

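Of 413 counts and medians recomputed under 20 alternatives (medians under the 1.2-fold minimum, which cannot move, left out), 331 stayed within 1.5 times the reported count or within the replicate spread. The main exceptions follow. Tested for more than 1.2-fold, higher genes numbered 1394 and lower genes 1835, 4 members were higher and 0 lower, and calls were 0 and 0 in complexes I, II and IV, 1 higher in complex III and 0 higher in complex V. Lower members numbered 11 with upper-quartile factors, and 3 with DESeq2's test, no count filter or unstranded counts. In complex I, 5 were higher with upper-quartile factors, library size only or DESeq2's test, and 2 were lower with DESeq2's test, no filter or unstranded counts. In complex III, 2 were higher with upper-quartile factors. Complex IV had 0 higher with upper-quartile factors or library size only. It had 3 lower with upper-quartile factors, 2 with a filter of 50 counts or library size only, and 0 with DESeq2's size factors or test, limma-voom, no filter, unstranded counts or the replicate block. Complex V had 1 lower with upper-quartile factors, library size only or the filter of 50 counts, and the assembly genes had 1 lower with upper-quartile factors.

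With offsets for GC content and length, alone or with the replicate block, complex I had 16 higher and 3 lower and the assembly genes 1 lower. Median log2 fold changes with the offsets alone were 0.103 (all members), 0.088 (I), 0.291 (assembly), 0.115 (III) and 0.135 (V), and with the block too 0.102, 0.087, 0.293, 0.114 and 0.134. With upper-quartile factors they were 0.015 (all), 0.0014 (I), 0.207 (assembly), 0.161 (II), -0.038 (IV) and 0.035 (V). With library size only they were 0.019 (all), 0.0048 (I), 0.164 (II) and -0.035 (IV), and without a count filter 0.227 (II). The cause of these shifts was not tested. Scaling moved the median of all genes by less than 0.1 on the log2 scale.

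Leaving out each library in turn, higher members numbered 21 to 33 and lower members 3 to 6. Complex I had 5 to 11 higher and 1 to 5 lower, complex IV 0 to 1 lower and the assembly genes 0 to 1 lower. Medians were -0.017 to 0.037 (IV) and 0.078 to 0.115 (V). All genes gave 3759 to 4111 higher and 3592 to 3790 lower.

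Some members that were not called changed sign. With the GC and length offsets NDUFV1 was 0.14 (adjusted p = 0.00225 in edgeR), NDUFS7 0.11, NDUFS8 0.086, COX6B1 0.040, COX8A 0.077 and NDUFA4 -0.015, and with the replicate block too 0.14, 0.11, 0.081, 0.040, 0.075 and -0.015. With upper-quartile factors NDUFS1 was -0.018, COX7A2L -0.0036 and NDUFA4 -0.017, and with library size only -0.015, -0.00033 and -0.014. Without a filter NDUFV1 was 0.021, COX6B1 0.0062 and COX8A 0.021, and with unstranded counts NDUFV1 was 0.0058 and NDUFS7 0.29. Leaving out 1 library at a time, NDUFV1 ranged from -0.025 to 0.028, COX6B1 from -0.066 to 0.04, COX8A from -0.073 to 0.037, NDUFS8 from -0.11 to 0.058, COX7A2L from -0.0070 to 0.10 and NDUFA4 from -0.025 to 0.069.

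Same-numbered libraries of the 2 groups did not deviate together (correlations of deviations -0.028, 0.0014 and -0.019), so the numbers were not taken to pair them. With a replicate block 24 members were called higher and 5 lower, and 4054 and 3936 of all genes. Members under 1 CPM rest on too few reads for changes of the size seen elsewhere.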

Other observations

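The order of the libraries within a group was uneven among the members. Yes T348I replicate 2 was the lowest of its group for 57 of the 87 tested members, and Yes WT replicate 1 for 46 of 87. Over all genes tested these libraries were the lowest of their group for 36.3% and 34.8%. Without Yes T348I replicate 2, 33 members were called higher and 5 lower, and without Yes WT replicate 1, 21 were called higher and 6 lower.

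The tested members were short genes, with a median longest transcript of 1585 bases against 3389 over 14691 genes with a value, and their median GC content was 47.4% against 47.9%. Across the 87 members, Spearman's rho of the log2 fold change was -0.078 with GC content and 0.070 with the length of the longest transcript. Across all genes it was -0.16 and -0.060. These are descriptions across genes, which share libraries and are not independent replicates.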
